A study of Mus musculus with 31 samples.

Results

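The p53 pathway was followed through 36 genes: Trp53, which encodes p53, its regulators Mdm2 and Mdm4, and 33 genes known as p53 targets. The rule that chose them uses their names alone, and it was written with earlier results of these data known. Of these, 35 were among the 34865 genes of the bulk RNA-seq table (Ptprv was not in it) and 36 among the 55487 genes of the Smart-seq2 table. They were sorted by known role into regulators (3 genes), cell cycle (8), apoptosis (15), metabolism and stress (7) and DNA repair (3).

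p53 is a transcription factor that is kept at a low level by Mdm2, a ubiquitin ligase that is itself a p53 target, and by the related inhibitor Mdm4. When p53 accumulates after DNA damage or other stress, it binds pairs of short half-sites in DNA and switches on genes that stop the cell cycle, trigger apoptosis, limit growth and aid repair. In the embryonic brain, where progenitors divide rapidly, loss of the inhibitors is known to cause p53-dependent cell death, and p53 activity is one of the traits by which neighbouring cells can compete.

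The series title ties Axin2, a Wnt target that damps Wnt signalling, to stem cell competition in the mouse embryonic brain. Bulk libraries were made from dorsal and ventral diencephalon of wild-type mice at E10.5 (E, embryonic day), 3 for each region. Medial cortex cells at E11.5 were profiled by Smart-seq2, which reads whole transcripts of single cells, in 13 libraries labelled Axin2(-/-), called null here, and 12 labelled Axin2(+/+), called wild type. The labels speak of single cells but do not state that each library is 1 cell, so the spread and correlations between libraries may be those of cells or of pools. Both genotypes came from breeding Emx1-CreERT2::MADM-11::Axin2LacZ/+ mice, and the sample titles write the genotype as Emx1-cre(+/-) with Axin2(-/-) or Axin2(+/+). In MADM (mosaic analysis with double markers) the Cre joins parts of paired chromosomes, here chromosome 11, so that null and wild-type cells arise side by side in 1 animal. The inducible Cre is driven from Emx1, a gene of the dorsal telencephalon. Cells outside that recombination keep the heterozygous genotype. Trp53, Ccng1 and Dcxr lie on chromosome 11 with Axin2, so for them the genotype and the parental chromosome cannot be told apart.

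The bulk libraries held 17604166 to 20838002 counts. Ventral library 3 had 17827 genes with a count, while the other bulk libraries had 20306 to 21691. Its total of 17769770 counts was close to that of dorsal library 3 (17604166), which had 21691 such genes. The part of this gap in the 0 and low values of ventral library 3 was not tested. Lists of region markers matched the labels: 11 of 11 thalamus and dorsal diencephalon genes were higher in dorsal libraries and 10 of 11 hypothalamus genes in ventral libraries. In each region libraries 1 and 2 resembled each other most (correlation of log expression 0.9948 in dorsal and 0.9871 in ventral), while library 3 correlated with them at 0.9593 to 0.9623 in dorsal and 0.9141 to 0.9254 in ventral. The ventral libraries also carried genes of other organs: 24 of 24 tested intestine genes and 13 of 13 exocrine pancreas genes were higher there, at a summed 0.362% to 1.25% of counts for intestine against 0.00159% to 0.00227% in dorsal. In the Smart-seq2 libraries 7863 to 12209 genes reached 1 TPM (transcripts per 1000000). Axin2 was between 0 and 22.4 TPM in null libraries (median 3.28) and between 4.32 and 35.9 TPM in wild-type libraries (median 13.2), so the genotypes overlapped. The neural progenitor list had 11 to 13 of its 13 genes at 1 TPM or more in each library, and haemoglobin and other erythroid genes summed to between 1263 and 51767 TPM.

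Promoter windows of 250 bases before each start were available for 30 of the 36 members in the RefSeq annotation of GRCm38.p6, but not for Perp, Pmaip1, Ptprv, Tnfrsf10b, Trp53inp1 and Zmat3. They were searched on both strands for the p53 half-site consensus, a palindrome of 10 bases. At least 1 exact match was present in 11 members (36.7%), against 8.2% of the 27025 genes with a window. The 11 members were Trp53, Mdm2, Cdkn1a, Ccng1, Gadd45a, Bax, Ei24, Aen, Rps27l, Sesn1 and Polk. Some genes had more than 1 window, and a match in any of them counted for the gene. By window, 11 of 45 member windows held an exact match, against 7.13% of the 32851 windows of all genes. A pair of half-sites at most 13 bases apart, with at most 1 mismatch each outside the core bases, was present in 3 members (Cdkn1a, Rps27l and Zfp365), against 1.34% of all genes. Of the members that differed between the bulk regions, Cdkn1a and Sesn1 held a match, whereas Pidd1, Psrc1 and Ddit4 had none in these windows. A match describes the letters and does not show that p53 binds there. The 3 windows below belong to the best-known target, to the other target of the dorsal group with a match, and to the feedback inhibitor. Capitals mark exact half-sites and the half-sites of a pair. The Cdkn1a stretch is chr17:29090903-29090972 on the plus strand, before the first listed start, and its pair of adjoining half-sites begins 51 bases before that start. The Sesn1 stretch is chr10:41887236-41887305 on the plus strand, with a match 173 bases before the second listed start. The window before the other listed start of Cdkn1a, and that of Sesn1, held no match. The Mdm2 stretch is chr10:117710905-117710974 on the minus strand, with a match 186 bases before the start.
Cdkn1a: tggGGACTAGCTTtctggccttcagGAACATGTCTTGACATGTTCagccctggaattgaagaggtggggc
Sesn1: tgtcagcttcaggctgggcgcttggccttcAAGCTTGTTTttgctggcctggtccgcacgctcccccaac
Mdm2: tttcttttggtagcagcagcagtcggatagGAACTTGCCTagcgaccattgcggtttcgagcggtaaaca

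In the diencephalon, a small group of p53 targets was higher dorsally while p53 itself and its main inhibitor did not pass the test. Cdkn1a, Psrc1, Pidd1, Sesn1 and Ddit4 were 2.83-fold to 4.63-fold higher in dorsal libraries, and Perp was 10.49-fold higher in ventral libraries. With 34 members tested (Gdf15 was below a mean of 1 CPM, counts per 1000000), 5 were higher in dorsal (14.7%) and 1 in ventral (2.94%) at an adjusted p under 0.05 in edgeR's quasi-likelihood test. Over all 14701 genes tested, 7.14% were higher in dorsal and 9.54% in ventral. The median log2 fold change of dorsal over ventral was 0.33 over the members and 0.01 over all genes, and 24 members had a positive value and 10 a negative one. For 9 members every dorsal library exceeded every ventral one, and the reverse held for Perp and Fbxw7. These 9 and 2 of 34 members compare with shares of 19.0% and 20.0% over all genes. In bulk tissue, fewer cells of a type and less RNA per cell cannot be told apart.

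**Figure D1:**
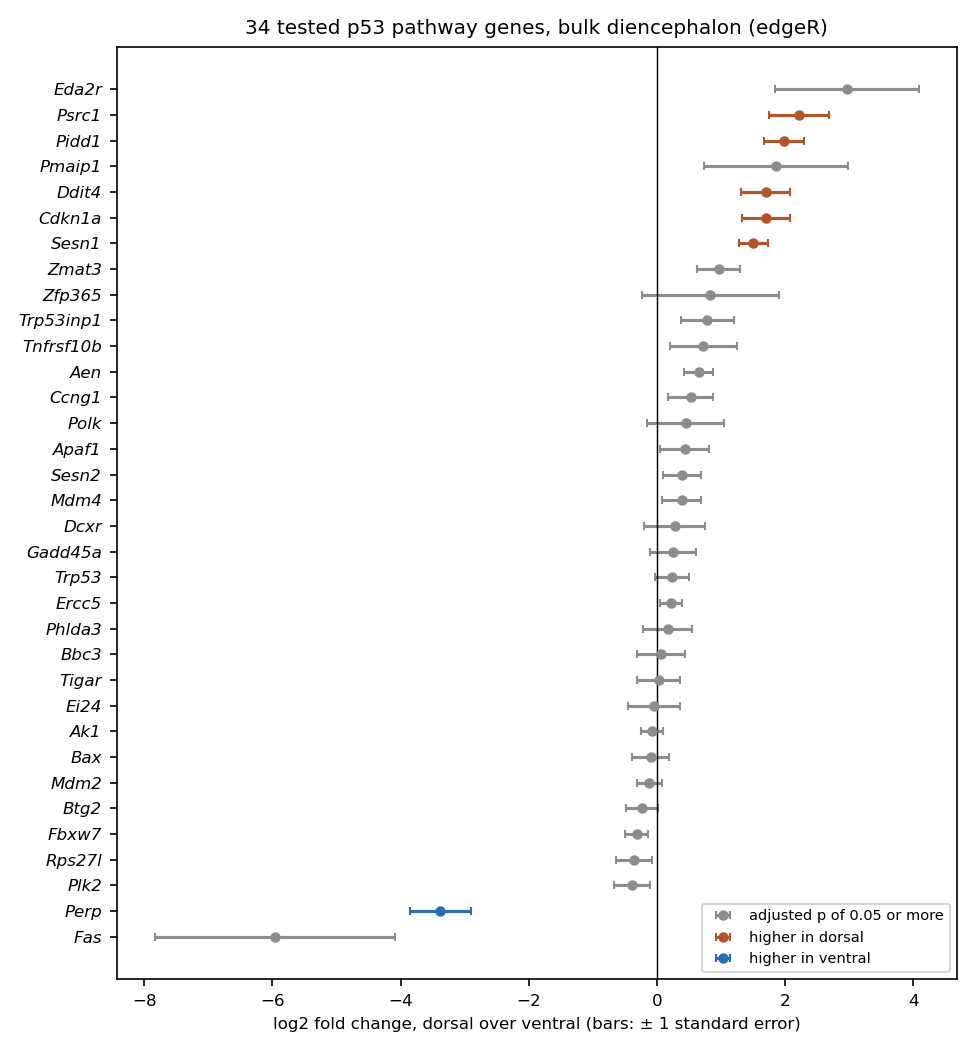
Log2 fold change of dorsal over ventral diencephalon for the 34 tested p53 pathway genes, with bars of 1 standard error from edgeR; orange marks an adjusted p under 0.05 higher in dorsal (5 genes), blue the same in ventral (Perp), and grey the 28 others. Most genes sit near 0, and Eda2r, Pmaip1 and Fas have wide bars.

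The regulators did not differ beyond the spread between libraries. Trp53 (chromosome 11, 69580359 to 69591873, plus strand) was at 126, 114 and 71.9 CPM in dorsal libraries 1 to 3, and ventral libraries 1 to 3 held 80.8, 72.2 and 112 CPM. The regions overlapped: dorsal library 3 lay just below every ventral library, and ventral library 3 was close to the 2 higher dorsal libraries. The log2 fold change came to 0.24 (standard error, SE, 0.26; edgeR adjusted p 0.592). Mdm2 (chromosome 10, 117688875 to 117710758, minus strand) was at 125, 123 and 97.2 CPM in dorsal libraries and at 110, 113 and 153 CPM in ventral libraries. Library 3 was again the one that stood apart, low in dorsal and high in ventral, and the log2 fold change was -0.12 (SE 0.20; edgeR adjusted p 0.727). Mdm4 had the same shape, with 95.9, 92.0 and 74.4 CPM dorsally and 52.3, 46.8 and 101 CPM ventrally, and a log2 fold change of 0.39 (edgeR adjusted p 0.436). No regulator passed an unadjusted p of 0.05 in edgeR, and DESeq2 called 0 of them. Without ventral library 3, Mdm4 was called higher in dorsal.

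Of the cell cycle genes, 2 of the 7 tested were higher in dorsal and 5 were not called. Cdkn1a (chromosome 17, 29090976 to 29100727, plus strand) encodes p21, the inhibitor of cyclin-dependent kinases through which p53 arrests the cycle. It was at 39.4, 39.6 and 42.0 CPM in dorsal libraries and at 15.3, 16.2 and 5.84 CPM in ventral libraries. The dorsal libraries were nearly level (40.3 ± 1.48 CPM, SD, n = 3), and all of them lay far above the ventral ones (12.4 ± 5.73 CPM). The difference was 3.24-fold, or 1.70 on the log2 scale (SE 0.37; edgeR adjusted p 0.0178). Leaving out dorsal library 1 or dorsal library 2 took the adjusted p above 0.05, up to 0.0577 over all alternatives.

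Psrc1 (chromosome 3, 108383839 to 108388231, plus strand) encodes a microtubule-associated protein of the mitotic spindle. Its level was 22.1, 24.3 and 41.4 CPM in dorsal libraries and 3.11, 5.84 and 10.01 CPM in ventral libraries. Library 3 was the highest in both regions, and the regions did not overlap. The 4.63-fold difference was 2.21 on the log2 scale (SE 0.47; edgeR adjusted p 0.0152), and the adjusted p became 0.0573 without ventral library 2.

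The other cell cycle members did not pass the test. Btg2, an antiproliferative gene known in neurogenic progenitors, had a mean of 107.5 CPM dorsally and 126.1 CPM ventrally. Plk2, a polo-like kinase, had 99.0 and 130.3 CPM, Ccng1 (cyclin G1) 61.6 and 42.8 CPM, and Gadd45a, a stress sensor that blocks entry into mitosis, 17.4 and 14.7 CPM. Fbxw7, which marks cyclin E for degradation, was lower in all 3 dorsal libraries (38.1 to 42.2 CPM) than in any ventral library (44.1 to 54.1 CPM), but with a log2 fold change of -0.31 it did not pass the test (edgeR adjusted p 0.279).

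**Figure D2:**
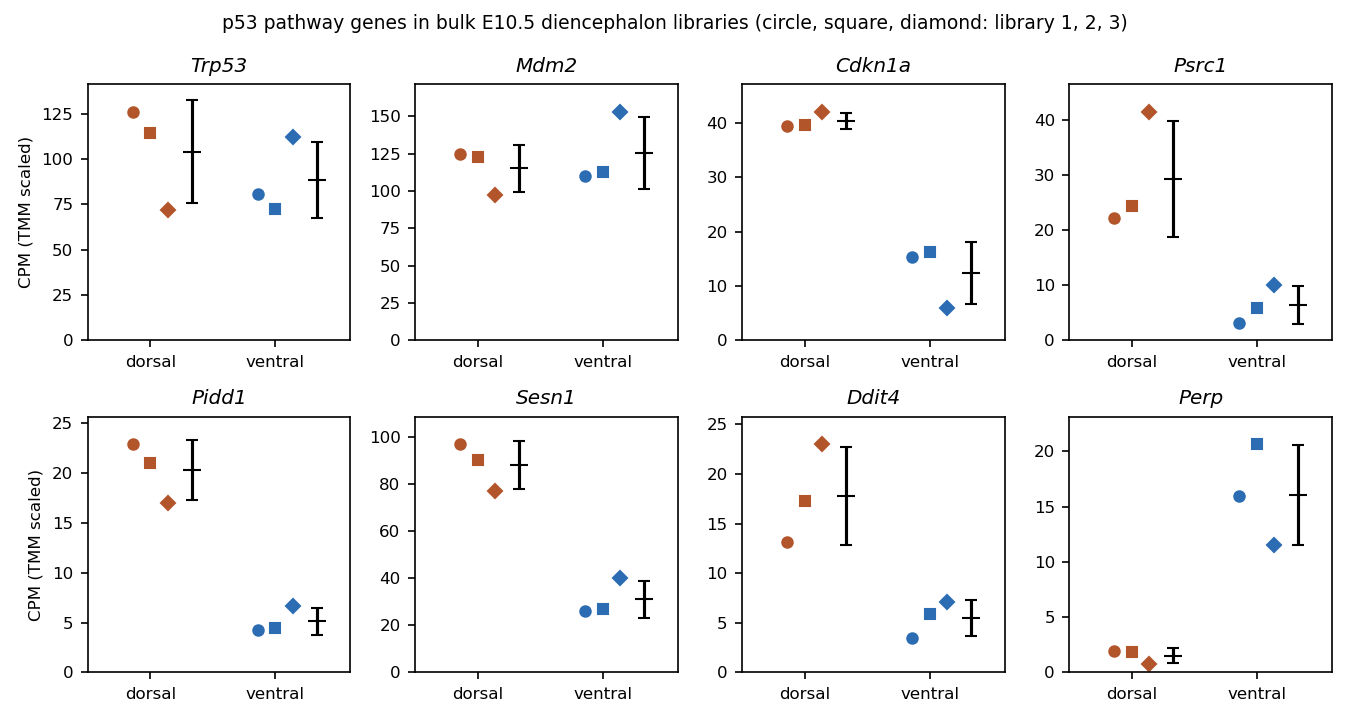
CPM after TMM scaling in each bulk library for Trp53, Mdm2 and the 6 p53 targets that passed the test, with dorsal libraries in orange, ventral in blue, and the mean ± SD of 3 libraries in black at the right of each group. Trp53 and Mdm2 overlap between regions, while the other 6 genes do not.

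The 15 apoptosis genes gave 1 dorsal call, 1 ventral call and 13 without a call. Pidd1 (chromosome 7, 141438113 to 141444025, minus strand) encodes the scaffold of the PIDDosome, which activates caspase-2. It was at 22.9, 20.99 and 17.1 CPM in dorsal libraries and at 4.24, 4.49 and 6.68 CPM in ventral libraries. The lowest dorsal value was well above the highest ventral one. This 3.96-fold difference was 1.98 on the log2 scale (SE 0.31; edgeR adjusted p 0.00429), and the call held in each of the 12 alternative settings.

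Perp (chromosome 10, 18845020 to 18857073, plus strand) encodes a membrane protein of desmosomes in stratified epithelia and a p53 effector of apoptosis. It was at 1.93, 1.87 and 0.793 CPM in dorsal libraries and at 15.9, 20.7 and 11.6 CPM in ventral libraries. Every ventral library lay above every dorsal one, with library 2 the highest and library 3 the lowest of the ventral group. On the log2 scale dorsal over ventral was -3.38 (SE 0.47; edgeR adjusted p 0.00252), and the call held in all 12 alternative settings. The list of epithelial genes moved the same way: 7 of its 10 tested genes were higher in ventral libraries. Its summed share of counts was 0.0185%, 0.0314% and 0.00959% in ventral libraries 1 to 3, in the same order as Perp, and 0.000472% to 0.00118% in dorsal libraries. The part of those cells in the Perp difference was not tested.

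None of the genes of the mitochondrial death pathway passed the test. Bax, which permeabilizes the outer mitochondrial membrane, had means of 115.5 and 123.4 CPM in dorsal and ventral libraries, and Bbc3 (PUMA), which frees it, had 23.3 and 22.3 CPM. Apaf1, the platform of the apoptosome, had 35.7 and 26.5 CPM, Ei24 90.2 and 93.2 CPM, and Phlda3, an inhibitor of Akt, 7.02 and 6.25 CPM. Pmaip1 (NOXA) was rare, at 2.58 to 4.70 CPM in dorsal and 0 to 1.84 CPM in ventral libraries, and the log2 difference of 1.86 was not precise (SE 1.13; edgeR adjusted p 0.311). Rps27l had the highest level per kilobase of the members in both regions (159.7 and 204.0 CPM per kilobase), but its near-identical paralog Rps27 could share reads with it, so the value is uncertain.

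Aen and Zmat3 were above every ventral library in each dorsal one without passing the test. Aen, an exonuclease of apoptotic DNA, was at 56.0, 56.9 and 48.0 CPM against 29.9, 44.0 and 28.8 CPM (log2 fold change 0.65, edgeR adjusted p 0.0900). Zmat3, an RNA-binding regulator of splicing, was at 30.2, 26.1 and 35.9 CPM against 11.1, 12.4 and 23.8 CPM (log2 fold change 0.96, edgeR adjusted p 0.0910). DESeq2 called Zmat3 but not Aen.

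The death receptors were low and uneven, and ventral library 3, where Fas was at 0, had the fewest genes with a count. Fas was at 0.094, 0 and 0 CPM in dorsal libraries and at 3.01, 4.33 and 0 CPM in ventral libraries, so the signal came from 2 ventral libraries (edgeR adjusted p 0.0679); DESeq2, no filter on low counts, or leaving out ventral library 3 called it. The macrophage list, 3 of whose 5 tested genes were higher in ventral, summed to 0.00347%, 0.00636% and 0.00122% of counts in ventral libraries 1 to 3 and to 0.000282% to 0.000761% in dorsal ones, and its part in the Fas values was not tested. Eda2r, a receptor for ectodysplasin A2, was at 9.21, 7.92 and 1.25 CPM dorsally and 1.73, 0.541 and 0.056 CPM ventrally (edgeR adjusted p 0.117). Dorsal libraries 1 and 2 alone stood above the rest for Eda2r, which DESeq2 and the fit with a replicate block also called. Tnfrsf10b, a TRAIL receptor, had means of 4.10 and 2.48 CPM. Trp53inp1, a p53 cofactor of cell death and autophagy, was at 189, 199 and 62.3 CPM dorsally and 109, 85.2 and 67.4 CPM ventrally, and without dorsal library 3 it joined the calls higher in dorsal.

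Of the 6 metabolism and stress genes tested, 2 were higher in dorsal, both known inhibitors of mTORC1, the growth-promoting kinase complex. Sesn1 (sestrin 1; chromosome 10, 41809935 to 41908424, plus strand) was at 96.8, 90.0 and 76.8 CPM in dorsal libraries and at 26.0, 26.8 and 40.2 CPM in ventral libraries. The regions were far apart, with library 3 the nearest to the other region in each. The 2.83-fold difference was 1.503 on the log2 scale (SE 0.23; edgeR adjusted p 0.00358), and this call too held in all 12 alternative settings. Ddit4 (REDD1; chromosome 10, 59949669 to 59951834, minus strand) was at 13.2, 17.2 and 23.0 CPM dorsally and 3.50, 5.89 and 7.07 CPM ventrally. Library 3 was the highest and library 1 the lowest in both regions. The 3.24-fold difference was 1.70 on the log2 scale (SE 0.38; edgeR adjusted p 0.0193), and it was lost without dorsal library 2, ventral library 1 or ventral library 2, with an adjusted p of up to 0.0685.

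Sesn2, the other sestrin on the list, lay between 10.03 and 14.8 CPM dorsally and between 9.02 and 9.46 CPM ventrally. These ranges did not overlap, yet the log2 fold change of 0.39 was not called (edgeR adjusted p 0.414). Tigar, a phosphatase that lowers glycolytic flux, had means of 16.1 and 15.8 CPM, Ak1 (adenylate kinase 1) 48.7 and 51.2 CPM, and Dcxr, a reductase of sugars, 7.61 and 6.27 CPM. Gdf15, a stress-induced cytokine, was at or below 0.453 CPM in every library.

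The 3 DNA repair genes did not pass the test in any setting. Ercc5, the endonuclease XPG of nucleotide excision repair, had means of 70.2 CPM dorsally and 60.4 CPM ventrally. Polk, a translesion polymerase, had 8.60 and 6.31 CPM, and Zfp365, which acts at stalled replication forks, 5.46 and 3.07 CPM. Their log2 fold changes were 0.22, 0.45 and 0.83, and 0 of the 3 had an unadjusted p under 0.05 in edgeR.

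Library 3 of each region bears on how many members were called. With both of them left out, a choice made after seeing the data, 13 members passed as higher in dorsal and 8 as higher in ventral (edgeR, 2 libraries against 2), and the shares over all genes became 26.4% and 28.3%. The 5 dorsal calls and Perp were among them, and Trp53 joined the dorsal side. The ventral side then held Bax, Bbc3, Btg2, Fas, Fbxw7, Plk2 and Rps27l beside Perp. Leaving out dorsal library 2 alone, or ventral library 2 alone, left 3 members higher in dorsal.

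Other lists of the pathway put the members in context. Of 22 tested p53 relatives and modifiers, 2 were higher in dorsal and 0 in ventral, with a median log2 fold change of 0.36; 7 and 0 had an unadjusted p under 0.05 in edgeR, and DESeq2 called 4 and 0. Trp73, a p53 paralog known in Cajal-Retzius cells and the edges of the forebrain, was at 50.1, 53.9 and 34.6 CPM in dorsal libraries and at 0.247, 0.541 and 0.167 CPM in ventral libraries. It was nearly confined to the dorsal libraries in this bulk comparison, at 7.16 on the log2 scale (SE 0.45; edgeR adjusted p 8.53e-05). Ep300, an acetyltransferase that acts on p53, was 1.80-fold higher in dorsal (edgeR adjusted p 0.0293). The call was lost with a replicate block (edgeR adjusted p 0.062) and without 1 of dorsal libraries 1 and 2 or ventral libraries 1 and 2 (up to 0.125).

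Of 22 further p53 targets tested, 2 were higher in dorsal and 1 in ventral, with a median log2 fold change of -0.07. Ckap2, a spindle protein, had a log2 fold change of 1.28 (edgeR adjusted p 0.0140, lost without dorsal library 1), and Pml, of nuclear bodies, 2.25 (edgeR adjusted p 0.0405, lost on leaving out any library but ventral library 3). Of 21 cell cycle genes known to be repressed through p53 and p21, 18 were higher in dorsal and 0 in ventral (edgeR; unadjusted 20 and 0, DESeq2 20 and 0). Their median log2 fold change was 1.75, on the same side as that of Cdkn1a. Cdc25c, a phosphatase that starts mitosis, had 2.51 (edgeR adjusted p 0.000747), and Mcm5, of the replicative helicase, 1.58 (edgeR adjusted p 0.00101). This list summed to 0.151% to 0.186% of counts in dorsal and 0.0425% to 0.0611% in ventral libraries, and the neural progenitor list to 0.164% to 0.203% and 0.0674% to 0.0877%. The part of cell composition in the dorsal differences of the p53 targets was not tested.

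In the medial cortex, 4 p53 pathway genes were lower in null libraries past the fold used and 0 were higher. The labels name no animal, so each genotype is 1 sample, and the differences below carry no test. Of the 31 members with a mean of 1 TPM or more, 0 were higher in null by 1 or more on the scale of mean log2(TPM + 1), and 4 were lower by 1 or more (12.9%). Over the 13680 genes at that mean, 1.39% were higher and 8.14% lower. The 4 differences lay close to the fold, at -1.02 to -1.11, and the counts moved with the setting: 0 members were lower with a pseudocount of 10, and 2 were higher with a pseudocount of 0.1 or by medians. The median difference was -0.21 over the members and -0.22 over all genes, so the 2 medians were close. Below that mean were Fas, Tnfrsf10b and Eda2r, while Gdf15 and Ptprv were listed at 0 in all 25 libraries. Null libraries had 16 to 31 members at 1 TPM or more (median 25) and wild-type libraries 19 to 30 (median 25.5).

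Trp53 was present in every library, from 64.7 to 210.0 TPM in null (median 162) and from 79.5 to 243.7 TPM in wild type (median 166.5). Both genotypes spanned nearly the same range, and the difference was -0.21. Mdm2 ran from 0 to 86.7 TPM in null (median 28.6) and from 12.4 to 73.3 TPM in wild type (median 49.2). The genotypes overlapped over most of their range, with a difference of -0.60. Mdm4 had means of 23.5 TPM in null and 29.6 TPM in wild type, a difference of -0.54.

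Cdkn1a ran from 3.30 to 305.7 TPM in null (median 31.0) and from 9.98 to 159.7 TPM in wild type (median 37.4). Its mean was higher in null (64.8 ± 85.2 against 46.5 ± 39.7 TPM, SD over libraries, n = 13 and 12), but its median was lower, and the difference on the log2(TPM + 1) scale was -0.0046. The null mean rested on few libraries: the 2 highest held 305.7 and 173.6 TPM. Without the highest library of each genotype the means were 44.7 and 36.3 TPM and the log2 difference -0.07. In wild type, 1 library stood out in the same way, with the next at 73.5 TPM.

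Each role held members with positive and negative differences except the regulators, and 4 of the roles each gave 1 member past the fold. Ercc5, of DNA repair, was at 0.50 to 37.4 TPM in null (median 6.09) and 3.42 to 34.97 TPM in wild type (median 15.4), a difference of -1.11. Gadd45a, of the cell cycle, was at 0 to 59.2 TPM (median 5.20) and 0 to 47.9 TPM (median 10.3), a difference of -1.10, and reached 1 TPM in 8 of 13 null and 11 of 12 wild-type libraries. For both genes the genotypes overlapped across nearly the whole range. Ak1, of metabolism, was at 0 to 24.8 TPM (median 7.75) and 0 to 38.2 TPM (median 16.8), a difference of -1.02. Ei24, of apoptosis, was at 0 to 104 TPM (median 17.9) and 0.32 to 87.8 TPM (median 44.5), also a difference of -1.02. These 4 genes were at least as high in single null libraries as in most wild-type ones. The null libraries had a median of 10791 genes at 1 TPM or more and the wild-type libraries 11271, and mitochondrial transcripts had medians of 18394 and 34023 TPM. The part of either gap in the lower levels was not tested.

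**Figure D3:**
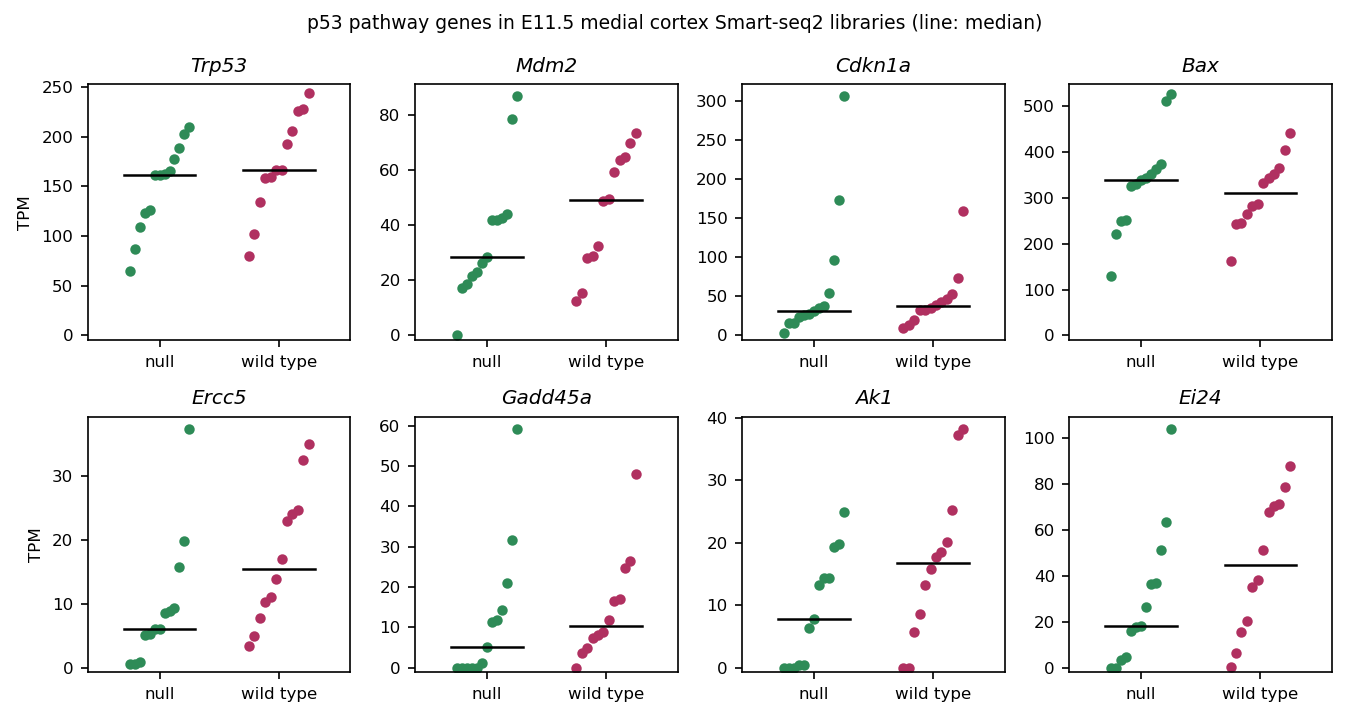
TPM in each Smart-seq2 library for Trp53, Mdm2, Cdkn1a and Bax and for the 4 p53 pathway genes lower in null by 1 or more on the log2(TPM + 1) scale; points are libraries ordered by level within 13 null (green) and 12 wild-type (red) libraries, and lines are medians. The genotypes overlap for every gene shown, and Cdkn1a has a few libraries far above the rest.

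The other members differed by less than the fold used. Rps27l was the most abundant (mean 1441 TPM in null and 1124 TPM in wild type) and, with Bax (332 and 310 TPM), was higher in null by less than 1 (differences 0.36 and 0.07). Psrc1, Btg2 and Aen had means of 42.3 to 63.1 TPM in each genotype. Dcxr showed the highest difference of all members at 0.79, with means of 14.5 TPM in null and 6.77 TPM in wild type. Apaf1 (-0.92), Sesn1 (-0.83), Pidd1 (-0.78) and Bbc3 (-0.71) were lower in null without reaching the fold, while Zfp365 (0.66) and Phlda3 (0.55) were higher. The targets that were higher in dorsal diencephalon thus had differences of both signs here, with Ddit4 at 0.22 and Psrc1 at 0.10. Perp was at 1 TPM or more in 7 of 13 null and 6 of 12 wild-type libraries, with means of 4.09 and 3.95 TPM. Zfp365 was at 0 in all of the first 14 columns of the Smart-seq2 table, so its difference came from the last 11. There it ran from 0 to 14.95 TPM in null and from 0 to 4.16 TPM in wild type.

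In the related lists, counts lower in null lay on both sides of the 8.14% of all genes. Of 21 p53 relatives and modifiers at the mean of 1 TPM, 0 were higher and 4 were lower in null by 1 or more (Trp53bp2, Chek1, Rchy1 and Sirt1), with a median difference of -0.39. For the further targets the counts were 0 and 1 of 19, the latter being Pltp, with a median of -0.41. The cell cycle list gave 0 and 1 of 21, Kif11, with a median of -0.15. These 6 genes were named after their values were seen.

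Spread between libraries set Cdkn1a apart from the other members. Its coefficient of variation (SD over mean, 25 libraries) was 1.19, at percentile 98.35 of the 1577 genes with a mean within 1.5-fold of its own, whose median was 0.508. It was the only member at or above percentile 90, and 18 of the 31 members lay under percentile 50. Trp53 (0.298) and Bax (0.290) were among the steady ones for their level. Ei24 came next to Cdkn1a, at percentile 89.3 with a coefficient of 0.831.

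**Figure D4:**
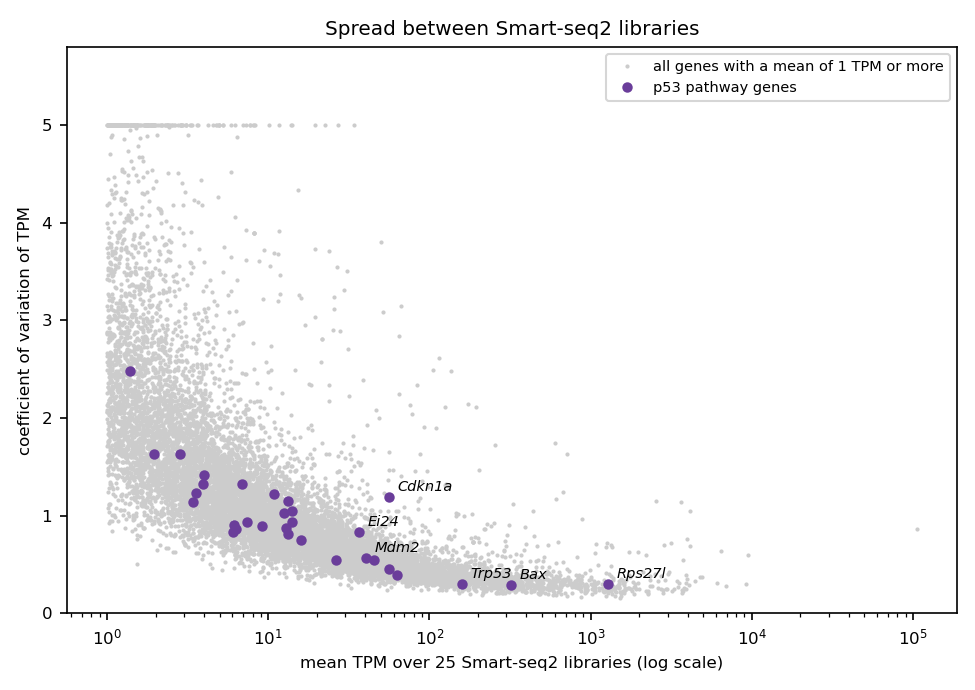
Coefficient of variation of TPM against mean TPM (log scale) over the 25 Smart-seq2 libraries, for 13680 genes whose mean reached 1 TPM (grey) and the 31 p53 pathway genes among them (purple). Cdkn1a lies above the band of genes of its mean, whereas Trp53, Bax and Rps27l lie within it.

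No member followed Cdkn1a closely across libraries. Of 30 members, 0 had a Spearman rho with Cdkn1a TPM of at least 0.4 and 0 had one of -0.4 or lower over the 25 libraries, against 1.48% and 2.54% of all 13679 other genes, a background that is itself low. These correlations are descriptions without a test, since the libraries share their preparation. The median rho was 0.079 over the members and -0.033 over all genes, and 20 members were positive. Sesn2 had the highest value (0.351), followed by Apaf1 (0.279), Pidd1 (0.260) and Gadd45a (0.255). Mdm4 (-0.348) and Plk2 (-0.313) had the lowest. Trp53, whose protein drives Cdkn1a but is controlled largely after translation, had -0.034, and Mdm2 had 0.094.

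The values differed between the genotypes, a difference that was not tested. Within the 13 null libraries the median rho over members was 0.229 and 5 members reached 0.4 (Sesn2 0.691, Phlda3 0.657, Ak1 0.547, Apaf1 0.447 and Btg2 0.440), against a median of 0.08 and 12.44% of all genes. Within the 12 wild-type libraries the median was -0.059 and 1 member reached 0.4 (Gadd45a, 0.469), against a median of -0.183 and 3.82% of all genes. All genes thus shifted in the same direction as the members. The number of genes at 1 TPM or more had a rho with Cdkn1a of 0.198 in null and -0.650 in wild type. Summed erythroid genes had -0.412 and 0.713, progenitor genes -0.143 and -0.629, and neuron genes 0.143 and -0.546. The cell cycle list had 0.099 and -0.308, and mitochondrial transcripts 0.220 and 0.084. The part of any of these measures in the shift was not tested. For 7 of the 30 members rho was positive in both genotypes.

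**Figure D5:**
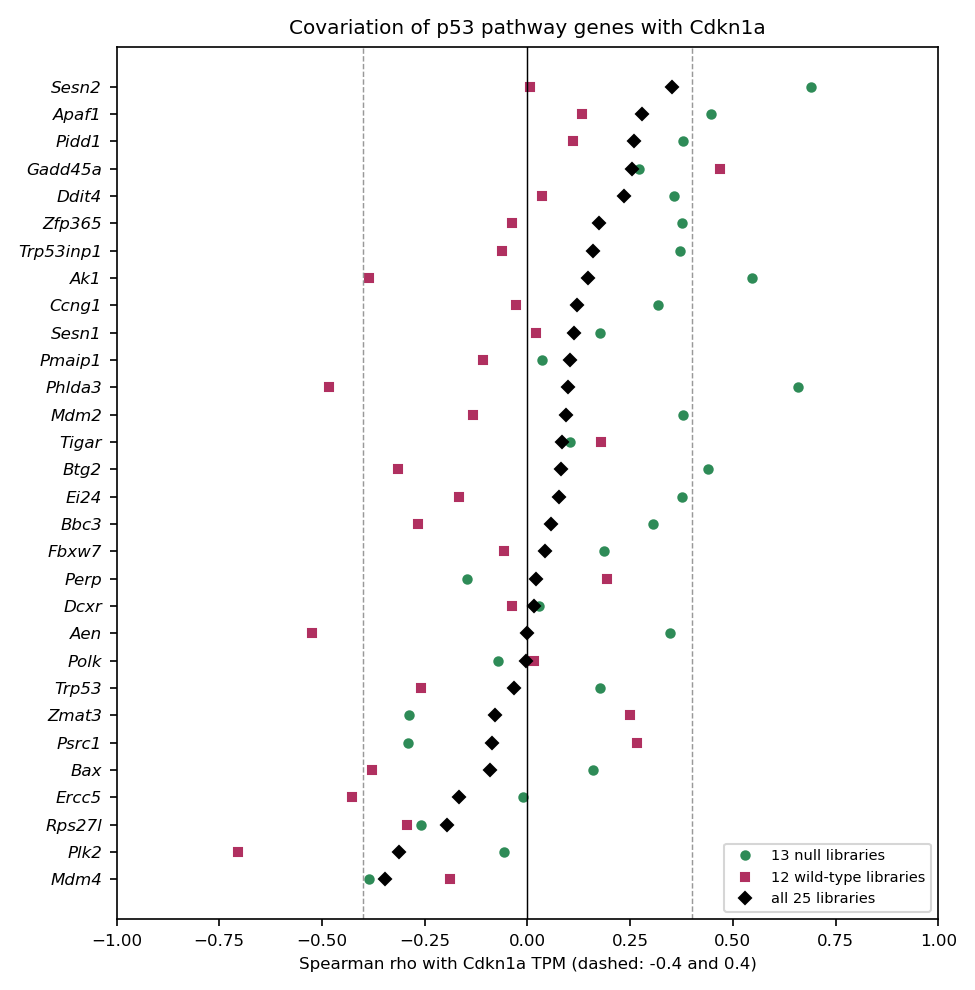
Spearman rho of 30 p53 pathway genes with Cdkn1a TPM over the 13 null libraries (green circles), the 12 wild-type libraries (red squares) and all 25 (black diamonds), with dashed lines at -0.4 and 0.4. All black diamonds lie between the dashed lines, and most green circles lie to the right of the red squares.

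Pairs of members had a median correlation like that of all pairs. The median rho over 465 pairs of members was 0.057, and over all 93564360 pairs of genes it was 0.056. Ei24 and Ddit4 formed the closest pair (0.532), with 0.186 in null and 0.958 in wild type, followed by Rps27l and Dcxr (0.528), which had 0.475 and 0.549. The wild-type levels of the closest pair differed by position in the Smart-seq2 table. Ei24 was at 0.32 to 51.0 TPM in the first 14 columns and 67.6 to 87.8 TPM in the last 11. Ddit4 was at 0 to 7.69 TPM and 2.95 to 11.67 TPM. The part of column position in the rho of this pair was not tested. The genes most like Cdkn1a among the 10248 at 1 TPM or more in at least 50% of libraries were Bmp4 (0.664), Gm10222 (0.626), Terf1 (0.622), Clip4 (0.621) and Foxn2 (0.611). Sesn2, the nearest member, ranked 257 of these genes.

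The libraries with the most Cdkn1a were not alike. The highest (305.7 TPM, null) and the one ranked 3 (159.7 TPM, wild type) had the 2 lowest sums of the 21 cell cycle genes repressed through p53 and p21, at 1533 and 1332 TPM. In the other 23 libraries that sum ran from 1955 to 4049 TPM. The sum differed by position in the Smart-seq2 table. It ran from 1332 to 3647 TPM in the first 14 columns, which held both low libraries. In the last 11 columns it ran from 3036 to 4049 TPM. The part of column position in the low sums was not tested. The same 2 libraries were also low in the neural progenitor list, at 1550 and 1305 TPM (ranks 3 and 1 from the lowest of 25), and had 10004 and 8693 genes at 1 TPM or more (ranks 8 and 5). The second highest (173.6 TPM, null), which was among the last 11 columns, had 3252 TPM of the cell cycle list and 2490 TPM of the progenitor list. Their mitochondrial transcripts differed too, with 57093 and 61865 TPM in the libraries low in cell cycle genes and 14966 TPM in the other, and the part of these measures in the Cdkn1a level was not tested. Over the 25 libraries Cdkn1a had a rho of -0.152 with the summed cell cycle list and -0.368 with the summed progenitor list. Single cell cycle genes had a median rho of -0.163 with Cdkn1a, and Ect2, which drives cytokinesis, was the only one at -0.4 or lower (-0.433).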

How the data were processed

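Bulk RNA-seq covered 3 dorsal and 3 ventral libraries, and Smart-seq2 covered 25 libraries. The tools named in the submitters' processing notes are featureCounts, STAR 2.7.0a and Trimmomatic, and the builds mm10 and GRCm38, with no role given. The deposited bulk values are estimated counts: the columns sum to 17604411 to 20838226, although the table is named as TPM. The deposited Smart-seq2 values are TPM, whose columns sum to 1000000, so their depth is unknown. Whether counting used strand is not given in the sources used here; Cdkn1a overlaps a predicted gene on the opposite strand and Sesn1 one on its own. Coordinates are GENCODE M21 on GRCm38.

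Bulk values were rounded and fitted with edgeR 4.0.16 (TMM, quasi-likelihood F test, R 4.3.3, checked on simulated data) where the mean reached 1 CPM, with Benjamini-Hochberg adjustment over all 14701 genes and a threshold of 0.05. CPM values are TMM scaled. The labels do not say whether replicate libraries had separate embryos as their source, so the p-values measure a spread that may be technical. The replicate numbers were not used as a block. For Smart-seq2, pseudocount 1, the difference of mean log2(TPM + 1) was taken without a test, which understates changes of low genes, and columns were assigned to a genotype by their name only. Alternatives were DESeq2 1.42.0, RLE scaling, no filter, a replicate block, leaving out libraries, other pseudocounts, medians and subsets of columns.

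All 36 members are accounted for. Trp53, Cdkn1a, Mdm2 and members past the threshold are given in every bulk library, and with members past the fold by lowest, median and highest in Smart-seq2. Up to 2 genes per direction of each further list are given by their bulk differences, and the 5 genes most like Cdkn1a by rho. Other genes were chosen after their values were seen. The members and lists were chosen with earlier results of these data known. The values of 1 gene of the further p53 targets are not reported here.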

Additional observations from a re-analysis of the deposited data

How the results depend on the processing

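The replicate numbers were not treated as pairs: same-numbered dorsal and ventral libraries had deviations correlated at 0.099, 0.148 and 0.165, and dorsal library 2 correlated best with ventral library 1 (0.187). With the replicate block, 6 members were higher in dorsal (Eda2r was added) and 1 in ventral, against 6.29% and 7.37% of all genes. Leaving out each library in turn gave 3 to 7 members higher in dorsal and 1 to 2 in ventral (3.38% to 11.54% and 5.67% to 13.1% of all genes), and leaving out library 3 of both regions gave 13 and 8 (26.4% and 28.3%). The ventral count was 2 with DESeq2 (13.7% of all genes) and 2 with no filter (6.39%). For p53 relatives and modifiers, the dorsal count was 4 with DESeq2, 1 with the replicate block, 1 to 7 with a library left out and 14 without both libraries 3, where the ventral count became 2. For the further targets, a library left out gave 0 to 3 in dorsal and 0 to 1 in ventral. The ventral count of that list was 2 with DESeq2 and 0 with the replicate block. Without both libraries 3 it had 6 in dorsal, 5 in ventral and a median log2 fold change of 0.32. The median over the members stayed between 0.27 and 0.39 in the 12 alternatives. RLE scaling, and library sizes without intestine and pancreas genes, gave 5 and 1 members. In the Smart-seq2 libraries the members higher in null numbered 2 with a pseudocount of 0.1, 2 by medians, 2 in the first 14 columns and 2 in the last 11, where the shares of all genes were 5.60%, 3.12%, 6.18% and 3.01%. Those lower in null numbered 8 with a pseudocount of 0.1, 0 with a pseudocount of 10, 2 in the first 14 columns and 7 in the last 11, against 22.2%, 0.227%, 10.96% and 20.9% of all genes. Members with a correlation with Cdkn1a of at least 0.4 numbered 1 by Pearson's r of log2 values, 5 within null, 1 within wild type, 2 in the first 14 columns and 6 in the last 11, against 2.49%, 12.44%, 3.82%, 3.75% and 15.56% of all genes. The median rho was 0.229 within null, -0.059 within wild type and 0.251 in the last 11 columns. The cause of these shifts was not tested. The subsets of columns and the fits without both libraries 3 or without gut genes were chosen after seeing the data. The number of libraries per region limits the bulk calls, and without read depth a 0 in the Smart-seq2 table cannot be given a limit.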

Other observations

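Ei24 differed between stretches of the Smart-seq2 table within each genotype. In the first 14 columns its median was 15.8 TPM in 7 null libraries (0 to 36.3) and 20.2 TPM in 7 wild-type libraries (0.32 to 51.0). In the last 11 columns it was 44.1 TPM in 6 null libraries (0 to 104) and 71.1 TPM in 5 wild-type libraries (67.6 to 87.8), so that in wild type the 2 stretches did not overlap. Trp53 did not show this, with wild-type medians of 166.6 and 166.4 TPM. The labels do not say what the order of the columns stands for. The lowest rho with Cdkn1a among the 10248 genes ranked belonged to Tmem135 (-0.694), Scoc (-0.683), Rars (-0.653), Prr11 (-0.623) and Zcchc8 (-0.611), each negative in both genotypes.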
